A study of Drosophila melanogaster with 8 samples.

Results

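The nuclear genes for subunits of the mitochondrial respiratory chain and ATP synthase were followed in testes and larvae of Drosophila melanogaster with altered tgs1. A gene was included when its symbol in the larval table began with ND- (complex I), UQCR- (complex III), COX (complex IV) or ATPsyn (ATP synthase). This gave 68 genes of the 15735 FlyBase genes in the larval table, and all 68 were matched by FlyBase identifier to the 15612 genes of the testis table, where 0 of them stood under the same symbol. Of the 68, 16 had symbols ending in L, or in L and a number, which mark paralogues of another subunit gene (the parent), and 52 did not. The 16 paralogues comprised 6 of complex I, 2 of complex III, 4 of complex IV and 4 of ATP synthase. The rule left out complex II and genes named in another way, among them sun and levy, the parents of ATPsynepsilonL and COX6AL.

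Complexes I, III and IV pass electrons from NADH to oxygen and pump protons across the inner mitochondrial membrane, and ATP synthase uses the returning protons to make ATP. Each of these complexes combines subunits encoded by nuclear genes with others encoded by mitochondrial DNA, and complex II, which feeds in electrons from succinate, is encoded by nuclear genes alone. In Drosophila, duplicated copies of many nuclear subunit genes are used mainly in the male germline, where mitochondria fuse and elongate as spermatids form.

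The study compared poly(A)-selected RNA from testes of males labelled WT and tgs1hypo, and from second instar larvae labelled WT and tgs1KO, with 2 libraries in each of the 4 groups. Tgs1 is the enzyme that adds further methyl groups to the cap of small nuclear RNAs, and it is translated from the same mRNA as moi (modigliani). Each testis library came from about 100 testes by the labels, or 100 pairs of testes by the study's methods, and each larval library from about 80 larvae, and flies were kept at 25 °C. Nothing in the labels says that the 2 libraries of a group came from separate cultures, so p-values measure only the spread between these libraries, which may be technical.

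The labels describe the testis groups in different ways. Titles call the libraries WT and tgs1hypo, while the genotype field gives bam>tgs1;tgs1hypo for the WT libraries and bam>moi;tgs1hypo for the tgs1hypo libraries. In the study's text tgs1hypo is the combination of a tgs1 allele with a moi allele, tgs1 15-11/moi CB0, and it was compared with wild type. The moi allele is an insertion, and the tgs1 allele holds several changes, among them insertions and a codon change in moi. Read from the genotype field instead, both testis groups carried this combination, and they differed in the coding sequence that bam-Gal4, a driver of the germline, expressed. The larval WT libraries carried tgs1 2-4, a line of similar background with intact open reading frames for tgs1 and moi that was treated as wild type, and the tgs1KO libraries carried tgs1 2-3, a single CRISPR frameshift allele with which larvae die in the second instar. Testes and larvae thus differed in allele as well as in tissue.

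Tgs1 itself was not a row that could be read in either table, so the check of the labels rested on moi, which shares its mRNA. In testes moi was at 10.1 and 11.4 FPKM in the WT libraries and at 3.81 and 2.71 in the tgs1hypo libraries, -1.47 on the log2 scale (limma SE 0.16, adjusted p = 0.000389). Lower moi in tgs1hypo went with the titles and with the alleles in the study's text, though the genotype field names bam>moi for these libraries, and the groups are called by their titles. In larvae moi was at 4.64 and 7.42 FPKM in WT and at 6.41 and 6.85 in tgs1KO, and the groups overlapped. A frameshift need not change the level of an mRNA, so this value checks nothing about the larval label.

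Deposited values are FPKM, fragment numbers divided by transcript length and by library size, which sum to between 792501 and 825832 per testis library and between 589777 and 639074 per larval library. The number of reads behind a value is unknown, because no counts were used here. On the log2(FPKM + 1) scale the 2 testis groups were clearly apart (r across genes 0.990 to 0.994 within groups and 0.942 to 0.950 between them). The larval groups were not (0.929 within WT, 0.953 within tgs1KO, 0.931 to 0.953 between). Larval serum protein and fat body genes, which rise late in larval life, summed to 418.4 FPKM in tgs1KO replicate 2 against 0.276 in replicate 1, and to 4.88 and 52.1 in WT, so the larval libraries differed within groups in this respect too. The part of this difference in the larval values of the 68 genes was not tested.

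Gene structure was taken from the BDGP6.54 annotation of Ensembl release 115. Of the 16 paralogues, 5 (COX6AL, ND-24L, ND-51L1, ND-B14.5AL and UQCR-14L) had no intron, against 0 of the 52 other genes, and the median number of introns was 1 for paralogues and 2.5 for the others. None of the paralogues lay on the X chromosome (0 of 16), whereas 10 of the 52 other genes and 5 of the 15 parents did. Only 4 of the 16 paralogues were on the same chromosome arm as their parent. The splice sites of 4 introns are shown because they set the intron-bearing genes of the comparison beside intronless ND-51L1. These are the second intron of ND-B8, the gene with the largest fall in testes (2L:4454995-4455055, plus strand), and the third intron of ND-51, the parent of ND-51L1 (2L:6061124-6061186, minus strand). The others are both introns of ATPsynbetaL, a paralogue with introns (3L:16097935-16097997 and 3L:16098393-16098548, plus strand). Sequences were read from the study's supplementary tables, each intron matched the annotation, donor sites hold 3 exonic and 6 intronic bases, acceptor sites hold 20 intronic and 3 exonic bases, and capitals mark the first 2 and the last 2 bases of the intron.
ND-B8 intron 2 donor: atgGTgagt
ND-B8 intron 2 acceptor: atcgattcccatgtccgcAGgca
ND-51 intron 3 donor: tcgGTaagt
ND-51 intron 3 acceptor: tatctccattctcggtgtAGatt
ATPsynbetaL intron 1 donor: cagGTaaga
ATPsynbetaL intron 1 acceptor: aatgaaaaaaaccatgttAGcat
ATPsynbetaL intron 2 donor: gagGTaagt
ATPsynbetaL intron 2 acceptor: tctattaatcgatttcttAGgta

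All 4 introns began with GT and ended with AG. The introns of ND-B8 and ND-51 were 61 and 63 bases long, and those of ATPsynbetaL were 63 and 156 bases. Sequences of the COX4L introns are not shown here. Spliced and unspliced transcripts are not told apart by FPKM, so no value below refers to splicing.

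Wild-type testes held the paralogues at high levels and wild-type larvae held almost none of their RNA. In WT testes the 16 paralogues had mean levels of 40.6 FPKM (ATPsynepsilonL) to 651 FPKM (COX4L), with a median of 164, which placed them between the 80.3 and 99.1 percentiles of all genes. In WT larvae the same genes were at 0.104 FPKM (ND-51L2) to 4.37 FPKM (COX6AL), with a median of 0.572. The 52 other genes were expressed in both tissues, at a median of 91.6 FPKM in WT testes and 149.6 FPKM in WT larvae. The tissues stand in tables that were normalized separately, so these levels are given side by side without a test.

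**Figure D1:**
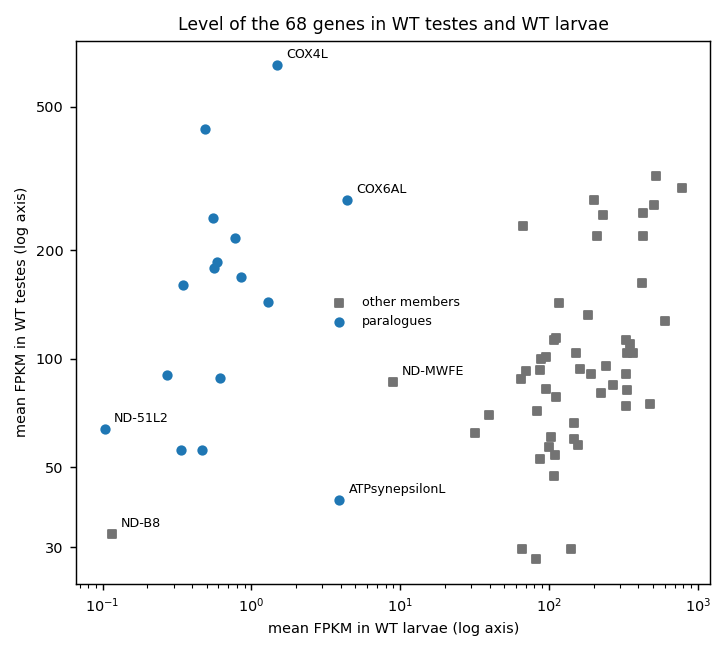
Mean FPKM of the 68 genes in WT testes (vertical log axis) against WT larvae (horizontal log axis), with paralogues as blue circles and the other genes as grey squares, each the mean of 2 libraries. Paralogues lie at or below 4.37 FPKM in larvae and at or above 40.6 FPKM in testes. ND-B8 is the only grey square in that larval range, and whether its larval reads were assigned to another entry was not tested.

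ND-B8, a gene without L in its symbol, had a low value in larvae and a higher value in testes, as the paralogues did. It encodes an accessory subunit of complex I. Its level was 34.5 and 30.6 FPKM in WT testes and 0 and 0.230 FPKM in WT larvae. No larval value was found for some respiratory genes, such as ATPsynC and sesB, and larval entries without a FlyBase gene were left out. ND-B8 also shares exonic bases with a gene on the opposite strand. Whether larval reads of ND-B8 were assigned to another entry was not tested, so its low larval value may not reflect its RNA level. The next lowest of the other genes in larvae, ND-MWFE, a small membrane subunit of complex I, was at 9.71 and 8.17 FPKM there and at 80.7 and 91.3 FPKM in WT testes. Within each complex the genes other than paralogues spanned a moderate range. In WT testes complex I ran from ND-20 (27.9 FPKM) and ND-49 (29.6) to ND-B12 (218.9) and ND-13A (233.0), complex III from UQCR-14 (59.8) and UQCR-11 (62.1) to UQCR-C1 (254.3) and UQCR-Q (276.3), complex IV from COX5B (74.0) and COX7C (84.7) to COX7A (162.7) and COX5A (266.7), and ATP synthase from ATPsyndelta (71.5) and ATPsyngamma (75.0) to ATPsynF (297.0) and ATPsynB (320.9). Neighbours at the low end, such as ND-20 and ND-49, overlapped in their libraries.

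In larvae the order differed in part, while the 2 highest and the 2 lowest genes of complex IV were the same as in testes. The highest of the 68 genes there were ATPsynF at 769.9 and 791.3 FPKM and ATPsynbeta, the catalytic subunit, at 505 and 704 FPKM in WT. ND-PDSW (240.9) and ND-SGDH (223.1) led complex I, UQCR-C1 (431.7) and UQCR-C2 (367.2) complex III, and COX5A (510.2) and COX7A (420.6) complex IV, as means of 2 WT libraries. Lowest were UQCR-11 (31.9) and UQCR-6.4 (64.6) for complex III, COX7C (271.0) and COX5B (331.4) for complex IV, and ATPsyndelta (83.7) and ATPsynG (232.3) for ATP synthase.

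Against their own parents, paralogues made up the larger part of the pair in testes in most cases. The paralogue's share of the FPKM summed over paralogue and parent averaged 30.4% (ATPsynbetaL) to 86.2% (COX4L) in WT testes, with a median over the 16 pairs of 71.3%. It exceeded 50% in all 4 testis libraries in 13 pairs, the exceptions being ATPsynbetaL, ATPsynepsilonL and ATPsynGL. In WT larvae the share averaged 0.0782% to 3.98%, with a median of 0.363%, and the highest in any larval library was 5.32%, for UQCR-11L in WT replicate 2. How reads that map to both copies were counted is not given in the sources used here. In larvae, where ATPsynbeta was at 505 and 704 FPKM and COX4 at 345.8 and 328.3 FPKM in WT, ATPsynbetaL was at 0.480 and 0.457 FPKM and COX4L at 2.51 and 0.476 FPKM in WT.

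Between genotypes, testes showed few changes among these genes that passed both limits of the test. In limma, a gene was called at an adjusted p under 0.05, over 11343 genes tested, together with an absolute log2 change of at least 1, and all 68 genes were tested. The calls comprised 2 of 68 higher in tgs1hypo, ND-51L1 and ND-20L, where 3.54% of all genes tested were called higher, and 2 of 68 lower, ND-B8 and COX4L, where 7.11% of all were called lower. At 4 of 68, or 5.88%, the share called was below the 10.6% over all genes. By class, the share called was 18.75% of the 16 paralogues, above that of all genes, and 1.92% of the 52 others. These 4 genes were called under every alternative tried, each library left out included. Among all genes 33.3% of the calls were higher under the deposited scaling and 22.3% under median-of-ratios scaling, which also moved the median change of all genes from 0.11 to 0.01.

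Smaller differences were common. At an adjusted p under 0.05 alone, 38 of 68 genes were higher and 11 were lower in tgs1hypo, so 49 in all passed, against 34.3%, 23.4% and 57.7% of all genes tested, and 19 passed in neither direction. Both tgs1hypo libraries lay above both WT libraries for 46 of the 68 genes (47.7% of all genes) and below both for 14 (32.6% of all genes). The log2 change was above 0 for 49 of the 68, as for 57.7% of all genes. Its median was 0.30 for the 68 genes, 0.52 for the 16 paralogues and 0.27 for the 52 others, beside 0.11 for all genes tested. The paralogues of different complexes lay on different sides of 0, and no paralogue changed direction under any alternative tried.

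**Figure D2:**
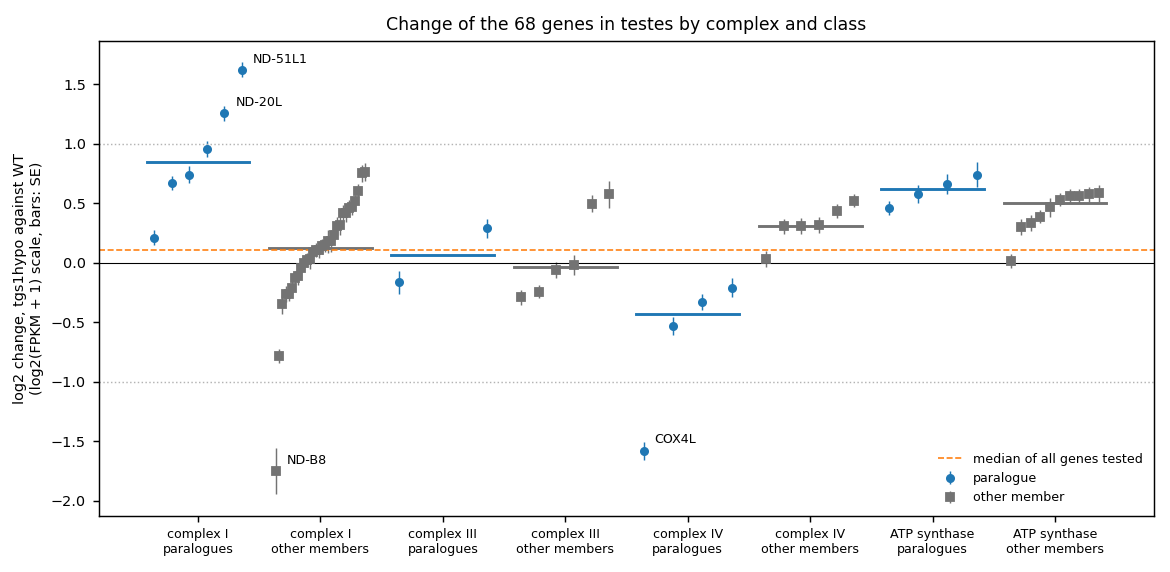
Log2 change from WT to tgs1hypo testes on the log2(FPKM + 1) scale for each of the 68 genes, with its limma SE, by complex and class, with 2 libraries per genotype. Horizontal bars are group medians, dotted lines mark a change of 1 in either direction, and the dashed line is the median of all genes tested (0.11). All complex I and ATP synthase paralogues lie above 0 and all complex IV paralogues below it.

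The 6 paralogues of complex I were all higher in tgs1hypo testes at an adjusted p under 0.05 alone (34.3% of all genes). Their summed level was 610.1 and 643.6 FPKM in the WT libraries and 1155 and 1090 FPKM in the tgs1hypo libraries, and the median of their log2 changes was 0.85. ND-51L1, a copy of the subunit that binds NADH, was at 57.4 and 54.4 FPKM in WT and at 178.1 and 170.0 FPKM in tgs1hypo. The mutant mean was 3.11 times the WT mean, with no overlap, and ND-51L1 rose by 1.62 on the log2 scale (SE 0.06, limma adjusted p = 1.27e-05).

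ND-51L1 (2R, 17595267 to 17597409, plus strand) lies inside Smurf, a ubiquitin ligase gene on the same strand, with which it shares 0 exonic bases. Smurf was at 59.5 and 60.3 FPKM in WT and at 52.4 and 55.2 FPKM in tgs1hypo, a log2 change of -0.15 (adjusted p = 0.0828). The second copy, ND-51L2 (2R, 15296764 to 15298329, minus strand), lies in the same way inside Trpm, which was at 5.54 FPKM or lower in every testis library. ND-51L2 was at 63.4 and 64.3 FPKM in WT and at 130.6 and 118.7 FPKM in tgs1hypo, with no overlap and a log2 change of 0.95 (SE 0.07, adjusted p = 7.61e-05), just short of the limit of 1. Without tgs1hypo replicate 2 its change was 1.02 and it was called. Their common parent ND-51 was at 31.8 and 27.4 FPKM in WT and at 34.7 and 32.5 FPKM in tgs1hypo (log2 change 0.18, adjusted p = 0.145).

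ND-20L, a copy of the iron-sulphur subunit ND-20 next to the quinone site, was at 85.0 and 91.5 FPKM in WT and at 216.8 and 207.5 FPKM in tgs1hypo. It rose by 1.26 (SE 0.06, adjusted p = 2.5e-05) and overlaps no other gene (3R, 29515717 to 29516527, plus strand). Its parent ND-20 was at 29.0 and 26.7 FPKM in WT and at 47.2 and 47.8 FPKM in tgs1hypo, a log2 change of 0.75 (SE 0.07, adjusted p = 0.000257), so both copies were higher in the mutant without overlap.

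The other 3 complex I paralogues were higher by less. ND-24L, a copy of an iron-sulphur subunit of the NADH arm, went from 159.3 and 177.8 FPKM to 292.6 and 271.4 FPKM (log2 change 0.74, SE 0.08, adjusted p = 0.000277), while its parent ND-24 was at 45.1 and 49.5 FPKM in WT and at 51.3 and 50.9 FPKM in tgs1hypo (0.11, adjusted p = 0.232). ND-49L, a copy of a core subunit at the quinone site, went from 90.8 and 89.8 FPKM to 148.1 and 140.4 FPKM (0.67, SE 0.06, adjusted p = 0.000166), and its parent ND-49 from 31.1 and 28.1 FPKM to 36.9 and 37.0 FPKM (0.31, adjusted p = 0.0138). ND-B14.5AL, a copy of an accessory subunit, went from 154.2 and 165.9 FPKM to 188.9 and 181.6 FPKM (0.21, SE 0.06, adjusted p = 0.0257). Its parent ND-B14.5A differed in the other direction, from 54.5 and 53.5 FPKM to 46.8 and 46.2 FPKM (-0.21, SE 0.06, adjusted p = 0.026). None of these genotype groups overlapped, for paralogue or parent.

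Among the 30 complex I genes that are not paralogues, 11 were higher and 6 lower at an adjusted p under 0.05 alone, shares close to the 34.3% and 23.4% of all genes tested, 1 was called, and the median change was 0.13, close to the 0.11 of all genes. The call was ND-B8, at 34.5 and 30.6 FPKM in WT and at 7.06 and 11.3 FPKM in tgs1hypo. Both mutant libraries were well below both WT libraries, and ND-B8 fell by 1.75 on the log2 scale (SE 0.19, adjusted p = 0.000382). The gene (2L, 4454626 to 4455207, plus strand) shares 71 of its 460 exonic bases with Gs1l on the opposite strand, which was at 10.4 and 8.87 FPKM in WT and at 11.9 and 13.7 FPKM in tgs1hypo. Without strand, reads of overlapping genes cannot be told apart, and whether counting used strand is not given in the sources used here.

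ND-B22, an accessory subunit of the membrane arm, had the next lowest change, from 140.1 and 144.8 FPKM in WT to 82.8 and 81.5 FPKM in tgs1hypo (-0.79, SE 0.06, adjusted p = 8.04e-05). It does not reach the limit of 1 and was named after its value was seen. At the other end stood ND-B18, another accessory subunit of the membrane arm, at 54.3 and 51.0 FPKM in WT and at 94.6 and 85.7 FPKM in tgs1hypo (0.76, SE 0.07, adjusted p = 0.000239). The most abundant subunits, ND-13A (226 and 240.0 FPKM to 195.1 and 192.7 FPKM, adjusted p = 0.00806) and ND-B12 (207 and 231 FPKM to 180.5 and 183.0 FPKM, adjusted p = 0.0147), were both lower, each by a log2 change of about 0.26. ND-SGDH was also lower, from 85.5 and 75.6 FPKM to 64.8 and 61.0 FPKM (-0.35, adjusted p = 0.00853). ND-PDSW was higher, from 95.7 and 95.0 FPKM to 137.9 and 125.3 FPKM (0.46, adjusted p = 0.0013), and ND-MWFE overlapped between genotypes at 93.6 and 82.6 FPKM in tgs1hypo. Complex I genes other than paralogues therefore spread to both sides of the median of all genes.

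In complex III 0 genes were called. Its 2 paralogues summed to 304.3 and 354.6 FPKM in WT and to 363.6 and 344.8 FPKM in tgs1hypo, which overlap. UQCR-14L was at 172.6 and 198.6 FPKM in WT and at 228.0 and 224.6 FPKM in tgs1hypo (0.29, SE 0.08, adjusted p = 0.0168), and its parent UQCR-14 went from 59.6 and 59.9 FPKM to 89.0 and 80.6 FPKM (0.50, SE 0.07, adjusted p = 0.00115). UQCR-11L overlapped between genotypes, at 131.8 and 155.9 FPKM in WT and at 135.6 and 120.1 FPKM in tgs1hypo (-0.17, adjusted p = 0.186), as did its parent UQCR-11, at 57.3 and 66.8 FPKM in WT and at 59.9 and 62.4 FPKM in tgs1hypo. For UQCR-11L the WT libraries stood wider apart than the means of the genotypes did.

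Of the 6 complex III genes that are not paralogues, 2 were higher, 2 lower and 2 passed in neither direction at an adjusted p under 0.05 alone, which is near the 34.3% and 23.4% of all genes that were higher and lower. UQCR-6.4 had the largest positive change, from 77.0 and 98.2 FPKM to 135 and 125 FPKM (0.57, SE 0.11, adjusted p = 0.00485). UQCR-Q had the largest negative change, from 277.7 and 274.9 FPKM to 235 and 217 FPKM (-0.29, SE 0.06, adjusted p = 0.00683). The core protein genes, UQCR-C1 and UQCR-C2, were at 256.5 and 252.1 against 215.4 and 213.5 FPKM (adjusted p = 0.00778) and at 107.8 and 100.3 against 101.8 and 97.4 FPKM (adjusted p = 0.447).

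Of the 4 paralogues of complex IV, cytochrome c oxidase, 3 were lower in tgs1hypo testes at an adjusted p under 0.05 alone (23.4% of all genes), 1 of these, COX4L, was called, and COX6AL did not pass. Their summed level was 1524 and 1687 FPKM in WT and 978.9 and 959.9 FPKM in tgs1hypo, and the median of their log2 changes was -0.43. COX4L, a copy of a subunit that binds regulatory nucleotides in mammals, was the most abundant of the 68 genes in WT testes at 616.2 and 685.5 FPKM, and it was at 226.2 and 207.8 FPKM in tgs1hypo. The mean of the mutant libraries was 0.33 of the WT mean, with no overlap, and COX4L fell by 1.58 on the log2 scale (SE 0.08, adjusted p = 2.19e-05). It overlaps no other gene (2R, 5353994 to 5354723, plus strand). Its parent COX4 was at 108.8 and 99.2 FPKM in WT and at 106.3 and 106.0 FPKM in tgs1hypo, which overlap (0.03, adjusted p = 0.71).

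The remaining complex IV paralogues had smaller negative changes. COX5BL went from 235.1 and 256.2 FPKM to 178.5 and 161.1 FPKM (-0.53, SE 0.08, adjusted p = 0.00114), and COX7AL from 415.8 and 451.3 FPKM to 330.8 and 358.6 FPKM (-0.33, SE 0.07, adjusted p = 0.00683). COX6AL was at 257.1 and 294.2 FPKM in WT and at 243.4 and 232.4 FPKM in tgs1hypo, with no overlap but an adjusted p of 0.0549. All exons of COX5BL lie opposite exons of Trmt6, which was at 3.60 FPKM or lower in every testis library.

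Parents in complex IV, apart from COX4, differed the other way. COX5B, a zinc-binding subunit, went from 76.3 and 71.6 FPKM to 94.4 and 89.0 FPKM (0.31, adjusted p = 0.00707), COX7A from 165.1 and 160.2 FPKM to 217.5 and 222.6 FPKM (0.43, adjusted p = 0.000761), and levy, which encodes subunit 6A, from 150.5 and 134.4 FPKM to 201.2 and 207.8 FPKM (0.52, adjusted p = 0.000965). Of the 6 complex IV genes that are not paralogues, 5 were higher at an adjusted p under 0.05 alone (34.3% of all genes) and 0 were lower (23.4%), with a median change of 0.31. COX5A, with the largest, went from 264.4 and 269.1 FPKM to 388.2 and 378.7 FPKM (0.52, SE 0.05, adjusted p = 0.000338), and COX7C from 81.9 and 87.6 FPKM to 103.2 and 108.2 FPKM (0.32, adjusted p = 0.00564).

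**Figure D3:**
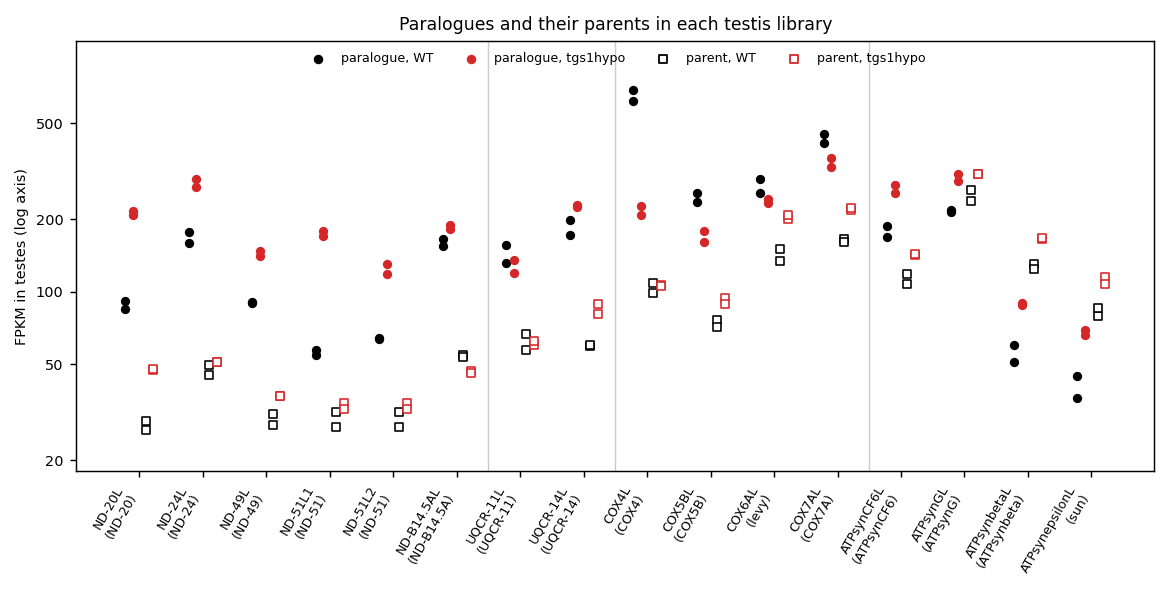
FPKM (log axis) of each paralogue (filled circles) and its parent (open squares, named in brackets) in the 2 WT (black) and 2 tgs1hypo (red) testis libraries, grouped by complex in the order I, III, IV and ATP synthase. ND-51 is drawn for both ND-51L1 and ND-51L2. Red circles lie above black ones in complex I and ATP synthase and below them in complex IV, most widely for COX4L.

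Of the 14 ATP synthase genes, 13 were higher in tgs1hypo at an adjusted p under 0.05 alone (34.3% of all genes) and 0 were lower (23.4%), but 0 were called, and ATPsynF passed in neither direction. The 4 paralogues summed to 488.7 and 494.2 FPKM in WT and to 739.9 and 702.1 FPKM in tgs1hypo, with a median change of 0.62. ATPsynepsilonL, a copy of a central stalk subunit, went from 44.9 and 36.2 FPKM to 66.4 and 69.7 FPKM (0.74, SE 0.10, adjusted p = 0.00116). Its parent sun went from 79.1 and 85.3 FPKM to 114.9 and 107.7 FPKM (0.43, adjusted p = 0.00182). ATPsynbetaL, a copy of the catalytic subunit, went from 60.4 and 51.3 FPKM to 88.0 and 89.5 FPKM (0.66, SE 0.09, adjusted p = 0.000799), and ATPsynbeta from 130.3 and 124.4 FPKM to 166.2 and 167.4 FPKM (0.39, adjusted p = 0.00138). In each of these pairs both copies were higher without overlap, and the paralogue had the larger change on the log2 scale.

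For the 2 remaining pairs, ATPsynCF6L, a copy of a stalk protein, went from 168.8 and 188.3 FPKM to 276.2 and 256.2 FPKM (0.57, SE 0.08, adjusted p = 0.000795), and ATPsynCF6 from 118.3 and 107.5 FPKM to 141.8 and 143.3 FPKM (0.34, adjusted p = 0.00478). ATPsynGL, a copy of a small membrane subunit, went from 214.6 and 218.3 FPKM to 309.3 and 286.8 FPKM (0.46, SE 0.06, adjusted p = 0.000912), and ATPsynG from 263.4 and 237.5 FPKM to 308.8 and 307.4 FPKM (0.30, adjusted p = 0.00824). Of the 10 ATP synthase genes that are not paralogues, 9 were among those 13, with a median change of 0.50. ATPsynO, a stalk subunit, had the largest, from 94.5 and 86.8 FPKM to 132.6 and 139.6 FPKM (0.58, SE 0.07, adjusted p = 0.000495), ATPsyndelta went from 72.7 and 70.3 FPKM to 103.9 and 110.1 FPKM (0.57, adjusted p = 0.000373), ATPsyngamma from 79.2 and 70.8 FPKM to 107 and 100.2 FPKM (0.46, adjusted p = 0.00217), and ATPsynB from 320.8 and 320.9 FPKM to 470.0 and 458.1 FPKM (0.53, adjusted p = 0.00032). The exception was ATPsynF, at 300.9 and 293.1 FPKM in WT and at 301.5 and 298.4 FPKM in tgs1hypo, which overlap (0.01, adjusted p = 0.839).

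Because a ratio within a library does not depend on how libraries are scaled, the share of the paralogue in its pair was also compared. The share was higher in both tgs1hypo libraries than in both WT libraries in 10 of the 16 pairs and lower in 6, with overlap in 0. Some of these pairs, given below, were separated by a narrow gap only. Groups without overlap were usual for single genes in these libraries, since 47.7% of all genes tested lay higher and 32.6% lower in both tgs1hypo libraries. No such share was computed for ratios of gene pairs, so the lack of overlap is not shown to be particular to these pairs. The 10 were the 6 pairs of complex I and the 4 of ATP synthase, and the 6 were the 4 pairs of complex IV and the 2 of complex III. With 2 libraries against 2, the exact two-sided permutation test cannot give a p below 0.33, which is the p of all 16 pairs, so the direction of each pair is a description. Pairs that share ND-51, and all pairs measured in the same 4 libraries, are not independent of each other.

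The widest shifts were in COX4L and ND-51L1. COX4L held 85.0% and 87.4% of its pair in WT and 68.0% and 66.2% in tgs1hypo, and its change minus that of COX4 was -1.61 on the log2 scale. ND-51L1 held 64.3% and 66.5% in WT and 83.7% and 83.9% in tgs1hypo, with a change 1.44 above that of ND-51. ND-51L2 followed with 66.6% and 70.1% in WT and 79.0% and 78.5% in tgs1hypo. In complex IV, COX5BL, COX6AL and COX7AL lost 11.7 to 12.1 percentage points each, as the difference of the group means. In complex III the differences were -2.25 points for UQCR-11L and -2.81 points for UQCR-14L, and in ATP synthase they ran from 2.76 points for ATPsynGL to 4.95 points for ATPsynepsilonL. COX4L thus went from a mean of 86.2%, the highest of the 16 pairs in WT, to 67.1%, while ND-51L1 went from 65.4% to 83.8%.

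**Figure D4:**
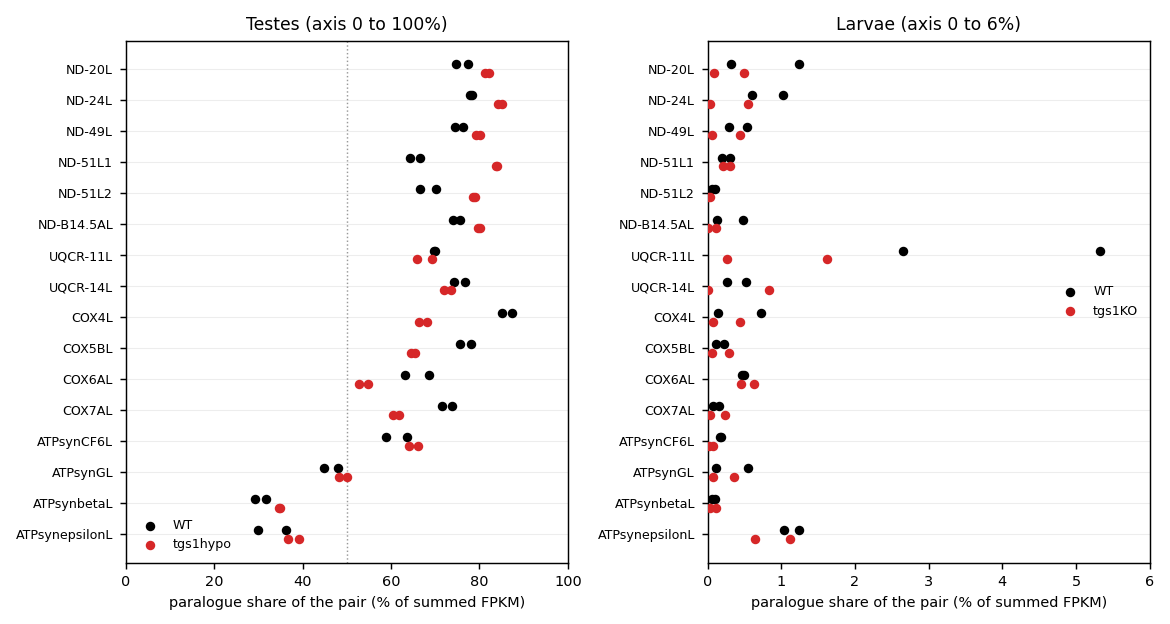
Share of the paralogue in the FPKM summed over paralogue and parent (percent, horizontal axis) in each testis library (left, axis to 100%) and each larval library (right, axis to 6%), with WT in black and the mutant in red. In testes the genotypes overlap in 0 of 16 pairs, though some gaps are narrow, and in larvae no share exceeds 5.32%.

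Presence of an intron did not separate the paralogues that were higher from those that were lower. Of the 5 without an intron, 4 were higher and COX6AL lower, with changes of -0.21 to 1.62 and a median of 0.29. Of the 11 with introns, 7 were higher and 4 lower, with changes of -1.58 to 1.26 and a median of 0.57.

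Respiratory genes with other names were followed as a list of 20, of which 13 were higher and 4 lower at an adjusted p under 0.05 alone, beside 34.3% and 23.4% of all genes, with a median change of 0.31. The only one called was Scox, which helps to load copper into cytochrome c oxidase. It was at 38.2 and 39.0 FPKM in WT and at 78.4 and 80.7 FPKM in tgs1hypo, with no overlap (1.02, SE 0.06, adjusted p = 4.58e-05), but its change was 0.92 under median-of-ratios scaling and 0.94 under quantile normalization, below the limit of 1.

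The list also held 5 pairs of related genes, and the share of SdhAL, SdhBL, Cyt-c-d and Ant2 in its pair was lower in both tgs1hypo libraries than in both WT libraries, while that of Cyt-c1L was higher. Cyt-c-d, the cytochrome c gene used in the male germline, was at 774.0 and 849.8 FPKM in WT and at 476.8 and 481.5 FPKM in tgs1hypo (-0.76, SE 0.07, adjusted p = 0.000177), while Cyt-c-p, used in other tissues, went from 47.0 and 46.2 FPKM to 64.9 and 64.2 FPKM (0.46, adjusted p = 0.000905). SdhBL, a copy of the iron-sulphur subunit of complex II, went from 171.0 and 176.6 FPKM to 138.6 and 134.0 FPKM (-0.35, adjusted p = 0.00213), and SdhB from 27.4 and 24.1 FPKM to 31.7 and 31.5 FPKM (0.29, adjusted p = 0.0282). SdhAL, a copy of the flavoprotein subunit, was at 90.5 and 93.2 FPKM in WT and at 90.1 and 86.6 FPKM in tgs1hypo (adjusted p = 0.456), beside SdhA at 147.3 and 144.7 FPKM and at 185.4 and 184.2 FPKM (adjusted p = 0.00198). Cyt-c1L, a copy of the haem subunit of complex III, was the exception among the copies: it went from 119.8 and 117.0 FPKM to 188.1 and 172.9 FPKM (0.60, adjusted p = 0.000345) and Cyt-c1 from 17.4 and 19.6 FPKM to 22.2 and 21.3 FPKM (adjusted p = 0.0773). Of the carriers that exchange ADP for ATP, Ant2 went from 425.4 and 416.9 FPKM to 358.0 and 370.1 FPKM (adjusted p = 0.0176) and sesB from 112.9 and 103.5 FPKM to 123.9 and 128.9 FPKM (adjusted p = 0.025). Unlike SdhAL, SdhBL, Cyt-c-d and Cyt-c1L, Ant2 had a high value in WT larvae too, at 897.7 and 1207 FPKM. No larval value was found for sesB, so whether the Ant2 value there includes reads of sesB cannot be told.

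Some markers of germline stages differed between genotypes in these testes. The counts below stand beside 34.3% of all genes higher and 23.4% lower at an adjusted p under 0.05 alone. In bulk RNA, fewer cells of a type and less RNA per cell cannot be told apart. The 4 spermatogonial genes summed to 42.8 and 39.5 FPKM in WT and to 52.4 and 53.6 FPKM in tgs1hypo, with 2 higher (vas 0.60, bgcn 0.31) and 0 lower at an adjusted p under 0.05 alone, and the sums did not overlap. The 9 spermatocyte genes summed to 593.3 and 612.0 FPKM in WT and to 584.3 and 572.6 FPKM in tgs1hypo, with 4 higher and 3 lower. Of these comr (log2 change 1.20), nht (1.05) and twe (1.04) rose, aly was at 0.82, and sa (-0.98), can (-0.91) and bol (-0.47) were lower at an adjusted p alone. The 8 spermatid genes summed to 1223 and 1317 FPKM in WT and to 1282 and 1226 FPKM in tgs1hypo, with 3 higher and 3 lower. Here wa-cup (-1.69) and d-cup (-2.12) fell, schuy (-0.21) was lower and r-cup (0.61), soti (0.33) and c-cup (0.16) were higher at an adjusted p alone. Spermatocyte and spermatid genes thus lay on both sides. The study reports that tgs1hypo males are sterile and arrest in meiosis, with testes that lack post-meiotic cells. The study saw this loss by microscopy. The summed levels of the spermatid genes overlapped between genotypes and did not show it. That sum is weighted to its highest genes, such as soti at 372.1 and 401.7 FPKM in WT, and d-cup, which fell, was at 48.1 and 52.9 FPKM there. How far the arrest enters the testis changes of the respiratory genes was not tested.

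Accessory gland and muscle markers were lower in tgs1hypo. The 5 accessory gland genes summed to 2363 and 2152 FPKM in WT and to 1392 and 1496 FPKM in tgs1hypo, so all testis libraries held accessory gland RNA. At an adjusted p under 0.05 alone 4 of 5 were lower, beside 23.4% of all genes. The 4 muscle genes summed to 239.1 and 225.6 FPKM in WT and to 111.6 and 132.0 FPKM in tgs1hypo, 4 of 4 lower. The 5 genes of somatic hub and cyst cells summed to 55.0 and 51.8 FPKM in WT and to 50.6 and 53.0 FPKM in tgs1hypo, which overlap, and among them upd1, a ligand made by the hub, fell (-1.51), Fas3 (-0.36) was lower and eya (0.62) higher at an adjusted p alone, and zfh1 (0.31) did not pass. The part of these differences in the changes of the 68 genes was not tested.

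In larvae no gene of the 68 was called, nor was any of the 9545 genes tested in limma (0%). Of the 68 genes, 54 passed the filter of a mean of at least 1 FPKM, namely 51 of the 52 others (all but ND-B8) and 3 of the 16 paralogues. The smallest adjusted p among them was 0.575, and 0 of 54 had an unadjusted p under 0.05, against 7.77% of all genes. Of the 54, 52 had a log2 change above 0, beside 80.2% of all genes tested, while 31 had both tgs1KO libraries above both WT libraries, beside 43.1%, and 0 had both below, beside 4.46%. The median change of the 51 other genes was 0.21 and that of all genes 0.25, and median-of-ratios scaling brought the latter to 0.01. Relative to all genes, the 51 were therefore close to the middle, with 21 of them above the median of all.

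Among the larval values the largest positive changes were in ND-AGGG and ATPsynCF6, neither past the test, named after their values were seen. ND-AGGG, a small complex I subunit, was at 74.4 and 66.3 FPKM in WT and at 115.1 and 90.4 FPKM in tgs1KO (0.53, SE 0.24, adjusted p = 0.575). ATPsynCF6 was at 432.6 and 229.2 FPKM in WT and at 518.9 and 400.4 FPKM in tgs1KO, which overlap (0.53, SE 0.37, adjusted p = 0.598). Of the parents of the paralogues called in testes, ND-51 overlapped between larval genotypes, at 111.7 and 170.1 FPKM in WT and at 167.5 and 142.6 FPKM in tgs1KO. ND-20, at 75.6 and 86.9 FPKM in WT and at 108.2 and 87.8 FPKM in tgs1KO, and COX4, at 345.8 and 328.3 against 389.0 and 367.4 FPKM, did not overlap but were far from the limit (adjusted p = 0.642 and 0.72).

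Summed over the 16 genes, paralogue RNA in larvae was at 19.8 and 14.2 FPKM in WT and at 11.4 and 17.8 FPKM in tgs1KO, which overlap. COX6AL and ATPsynepsilonL made up much of this, at 4.59 and 4.15 against 6.54 and 4.57 FPKM and at 3.86 and 3.95 against 2.75 and 4.05 FPKM. COX4L was at 2.51 and 0.476 FPKM in WT and at 0.310 and 1.63 FPKM in tgs1KO, so its libraries varied more within a genotype than between them. Spermatocyte markers were at a like low level, with 9.14 and 9.20 FPKM summed over 9 genes in WT and 4.79 and 7.03 FPKM in tgs1KO, and their part in the level of the paralogues was not tested. The share of the paralogue was lower in both tgs1KO libraries in 5 of 16 pairs (ATPsynCF6L, ND-24L, ND-51L2, ND-B14.5AL and UQCR-11L), higher in 0, and overlapped in 11. These counts depend on single libraries: without tgs1KO replicate 2 it was 14 pairs lower, and without tgs1KO replicate 1 it was 5 higher.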

How the data were processed

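RNA with poly(A) tails was sequenced in 8 libraries, 2 in each of 4 groups taken from the titles. The authors filtered the reads, mapped them with HISAT2 to the FlyBase genome and deposited FPKM values per gene, in 1 table for testes and 1 for larvae. Their text names featureCounts and DESeq2 for expression, while the tool behind the FPKM values and the strand setting are not given in the sources used here. No counts were used, so depth and counting error are unknown, and precision rests on the spread of 2 libraries per group.

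Within each tissue, FlyBase genes whose mean over its 4 libraries reached 1 FPKM were put on the log2(FPKM + 1) scale and fitted with limma 3.58.1 in R 4.3.3 (lmFit, eBayes with trend, genotype as the only term), with Benjamini-Hochberg adjustment over all genes tested. Calls needed both an adjusted p below 0.05 and a log2 change of 1 or more in either direction. This scale understates changes of low genes. Pair shares were compared by an exact two-sided permutation test. Python 3.11.15 with pandas 2.3.3, scipy 1.17.1 and matplotlib 3.10.9 did the rest, and the fit was tested on simulated data. Symbols ending in L were paired with the symbol without it, ATPsynepsilonL with sun and COX6AL with levy. Larval entries without a FlyBase gene were left out.

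The members, the other lists and the markers were chosen with earlier results of these data known. The genes named were all paralogues and parents, all called genes, the 2 highest and 2 lowest other genes per complex and tissue, the largest rise and fall per complex in testes, moi, and called or paired genes of the list of other respiratory genes. The alternatives changed the pseudocount (0.1), the filter (none, or 5 FPKM), the scaling (median-of-ratios, quantile, or every library brought to 1000000), the limits (no limit on size, or an adjusted p below 0.01), the trend (none) and the model (replicate number as a block). Each library was also left out in turn, and a group with 1 library left borrows its spread from the other one.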

Additional observations from a re-analysis of the deposited data

How the results depend on the processing

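The 4 testis calls (2 higher and 2 lower) were made under all 14 alternatives, and the larval count was 0 under all of them. At an adjusted p under 0.05 alone the testis calls were 49, with 38 higher and 11 lower, since the limit on size was dropped. Leaving out each library in turn gave 2 to 3 higher and 2 lower calls in testes, the third being ND-51L2 without tgs1hypo replicate 2 (1.02). Scox was below 1 under median-of-ratios scaling (0.92) and quantile normalization (0.94).

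Of the named testis genes, those that changed sign all had a log2 change near 0, and the cause was not tested. Under median-of-ratios scaling ATPsynF was at -0.094, COX4 at -0.077 and ND-MWFE at -0.074. Under quantile normalization COX4 was at -0.054 and ND-MWFE at -0.051. With each library left out in turn, ATPsynF ran from -0.0046 to 0.033, COX4 from -0.034 to 0.096, ND-MWFE from -0.055 to 0.12 and UQCR-11 from -0.13 to 0.090.

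Larval pair shares depended on single libraries. Leaving out 1 library gave 0 to 5 pairs with a higher share and 5 to 14 with a lower share, because 1 library then stands for its group. A minimum mean of 5 FPKM left no larval paralogue in the test, so no median exists there.

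With the replicate number as a block, testis calls were 2 higher and 2 lower and larval calls 0, and both same-numbered differences of the pair share had the same sign in 10 pairs upward and 6 downward. The labels do not say that a number marks a shared day or culture, and the deviations of same-numbered libraries correlated at 0.13 in testes and -0.17 in larvae. The median replicate SD was 0.24 on the log2 scale in larvae, against 0.09 in testes, and no limit of detection was computed, so the larval count of 0 does not show that the genotypes were alike.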

Other observations

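The current annotation gives the same prefixes to 12 further genes that the symbol rule did not reach. Of these, 6 are in both tables under other names, and 6 were not found in the larval table by their identifier. All 12 were chosen after the testis values were seen and are given as values only. The complex IV paralogue COX6CL was at 335.2 and 366.1 FPKM in WT testes and at 73.3 and 69.4 FPKM in tgs1hypo testes (log2 change -2.28, SE 0.07, limma adjusted p = 7.35e-06), a wider difference than that of COX4L. COX7CL was at 366.4 and 439.1 FPKM in WT and at 107.5 and 101.1 FPKM in tgs1hypo (-1.93, SE 0.09, adjusted p = 2.08e-05). The complex III paralogue UQCR-6.4L went from 150.4 and 178.5 FPKM to 78.3 and 69.4 FPKM (-1.14, SE 0.10, adjusted p = 0.000153). In larvae COX6CL and UQCR-6.4L stayed at 0.899 FPKM or lower in every library, and COX7CL was at 2.43 and 0.721 FPKM in WT and at 6.68 and 3.18 FPKM in tgs1KO (adjusted p = 0.575).

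The other complex IV copies, COX6AL2 and COX7AL2, pointed the same way in testes with smaller changes. COX6AL2 went from 157.3 and 164.2 FPKM to 98.9 and 99.6 FPKM (-0.69, adjusted p = 0.000132), and COX7AL2, at 3.15 FPKM or lower in every testis library, had a change of -0.51 (adjusted p = 0.0435). COX7B, which is no copy by its symbol, went from 67.2 and 64.1 FPKM to 88.0 and 83.0 FPKM (0.37, adjusted p = 0.00276). The other 6 were found only in the testis table, where ND-15 was lower (118.8 and 124.1 FPKM in WT, 85.1 and 86.1 FPKM in tgs1hypo, -0.50, adjusted p = 0.000507) and ATPsynC (0.41, adjusted p = 0.00212), COX6B (0.49, adjusted p = 0.000427), ND-23 (0.40, adjusted p = 0.00124) and ND-MLRQ (0.32, adjusted p = 0.0123) were higher, and ND-MNLL was at 2.78 FPKM or lower (-0.22, adjusted p = 0.235).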
